A study of Mus musculus with 7 samples.

Results

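Sox10, Erbb3, Foxd3, S100b and Ngfr are genes of the Schwann cell and neural crest lineage, and 5 of 5 were found by their Ensembl identifiers among the 15531 genes tested in mouse embryonic fibroblasts (MEFs) with and without a 4.3 Mb deletion of chromosome 4. The genes were selected on measured values, because each was already known to be listed as lower in the MEFs with the deletion, so their differences are given as a description and support nothing. RNA was measured by sequencing of stranded polyA+ libraries from 7 independent primary MEF lines. The 4 Df/+Bl6 lines carried the deletion on the chromosome from 129S5/SvEvBrd, opposite an intact C57BL/6J chromosome. The 3 +129/+Bl6 lines were hybrids of the same strains with both chromosomes intact. The labels give crosses of Df/Dp male chimeras with C57BL/6J mice for the lines of both genotypes. The supplementary methods likewise describe crosses of chimeras with C57BL/6J mice for F1 embryos of both genotypes. The main methods call the controls F1 crosses. The lines came from embryos at embryonic day 13.5 and were taken at passage 4 after reaching confluency. The cultures were started from minced bodies without heads, a mixed source of cells, and no sorting step is described.

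The values are mean normalized counts of each genotype as deposited, for the genes called different between the genotypes with DESeq at an FDR of 0.05, here called the listed genes. Values of single lines were not used, so that SDs, the overlap of lines between the genotypes and the sequencing depth are unknown, and no test was run. The combined table, on reads summed over both alleles, lists 1346 genes (8.67% of those tested), with 550 lower in Df/+Bl6 (3.54%) and 796 higher (5.13%). All 5 genes are among those lower, a count that the selection itself fixed. The log2 ratios below are those of the Df/+Bl6 mean over the +129/+Bl6 mean, so a negative ratio is a lower mean with the deletion.

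Neural crest cells leave the dorsal neural tube of the embryo and give rise to melanocytes, peripheral neurons and glia. Foxd3, a forkhead transcription factor, acts early in this lineage, and Sox10, an SRY-related transcription factor, is kept in the glial and melanocyte branches. Schwann cell precursors depend on neuregulin from axons, which binds the receptor ERBB3 and signals through its partner ERBB2. Ngfr encodes the low-affinity neurotrophin receptor, and S100b a calcium-binding protein used as a marker of glia.

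Sequences upstream of the start were available from RefSeq (GRCm38.p6) for 3 of the 5 genes and are shown because the genes had lower means together. Sox10 and Erbb3 had no entry. Each sequence is the 250 bases before the start, 5′ to 3′ on the strand of the gene, for Foxd3 at chr4:99656049-99656298 (plus strand), for S100b at chr10:76253586-76253835 (plus strand) and for Ngfr at chr11:95587699-95587948 (minus strand). Capitals mark matches, on either strand, to an E box (CANNTG), a SOX core (ACAANG), a cyclic AMP response element (TGACGTCA), a GC box (GGGCGG) and a CCAAT box (CCAAT), and no base belonged to matches of more than 1 of these motifs.
Foxd3: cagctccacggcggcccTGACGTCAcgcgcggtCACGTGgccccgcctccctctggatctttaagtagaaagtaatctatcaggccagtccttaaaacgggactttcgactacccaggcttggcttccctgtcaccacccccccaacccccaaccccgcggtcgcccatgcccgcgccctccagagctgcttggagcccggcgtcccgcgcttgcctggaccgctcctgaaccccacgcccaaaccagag
S100b: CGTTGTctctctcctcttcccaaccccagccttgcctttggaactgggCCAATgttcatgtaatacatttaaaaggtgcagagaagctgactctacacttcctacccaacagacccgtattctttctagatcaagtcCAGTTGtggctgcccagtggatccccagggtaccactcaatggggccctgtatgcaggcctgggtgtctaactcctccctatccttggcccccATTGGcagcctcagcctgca
Ngfr: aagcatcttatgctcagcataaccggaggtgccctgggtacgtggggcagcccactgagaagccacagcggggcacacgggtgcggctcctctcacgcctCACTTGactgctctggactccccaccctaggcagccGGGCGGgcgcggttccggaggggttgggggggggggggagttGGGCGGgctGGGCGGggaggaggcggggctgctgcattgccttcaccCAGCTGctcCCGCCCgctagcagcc

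The E box was the motif found in all 3 sequences, with 1 match in Foxd3, 1 in S100b and 2 in Ngfr, but 66.2% of the 32851 promoter sequences of the same length held it as well. The SOX core had 1 match, in S100b, against 36.3% of all promoters with a match. Foxd3 held the cyclic AMP response element, found in 1.55% of promoters. Ngfr held 4 matches to the GC box and S100b held 2 to the CCAAT box. At least 1 match was held by 32.7% of promoters for the GC box and by 33.8% for the CCAAT box. The shares with as many matches as Ngfr or S100b are not given here. Neither the TATA box (TATAAA, 12.4% of promoters) nor the AP-2 motif (GCCNNNGGC, 13.7%) was found in any of the 3. These matches describe the letters in these windows and no binding was measured. The GC content of the windows was 65.6% for Foxd3, 53.6% for S100b and 70.4% for Ngfr.

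Of the transcription factors, Foxd3 (ENSMUSG00000067261, chromosome 4, 99656299 to 99658671 in GRCm38) had a mean normalized count of 40.3 in Df/+Bl6 and 118 in +129/+Bl6 lines (log2 ratio -1.54). Sox10 (ENSMUSG00000033006, chromosome 15, 79154913 to 79164490) had 113 and 326, a log2 ratio of -1.53. The ratios of the pair were thus nearly equal, with a Df/+Bl6 mean at 34.3% of the +129/+Bl6 mean for Foxd3 and 34.7% for Sox10. In bulk RNA such as this, fewer cells of a type and less RNA per cell cannot be told apart.

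Of the receptors, Erbb3 (ENSMUSG00000018166, chromosome 10, 128567523 to 128589635) had a mean of 132 in Df/+Bl6 and 282 in +129/+Bl6, a log2 ratio of -1.09, the smallest difference of the 5. Ngfr (ENSMUSG00000000120, chromosome 11, 95568818 to 95587698) had means of 443 and 1334, a log2 ratio of -1.59, close to those of the transcription factors. The glial marker S100b (ENSMUSG00000033208, chromosome 10, 76253836 to 76261319) showed the largest difference, with means of 123 and 615, a log2 ratio of -2.32. Its Df/+Bl6 mean was 20.1% of that in +129/+Bl6, against 46.9% for Erbb3. The ratios of Ngfr, Foxd3 and Sox10 lay between -1.59 and -1.53, and with no spread over lines it is unknown whether the ratios of the 5 genes differ. Summed over the 5 genes, the means were 852 in Df/+Bl6 and 2674 in +129/+Bl6 (31.9%), and Ngfr made up 52.0% and 49.9% of these sums.

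**Figure D1:**
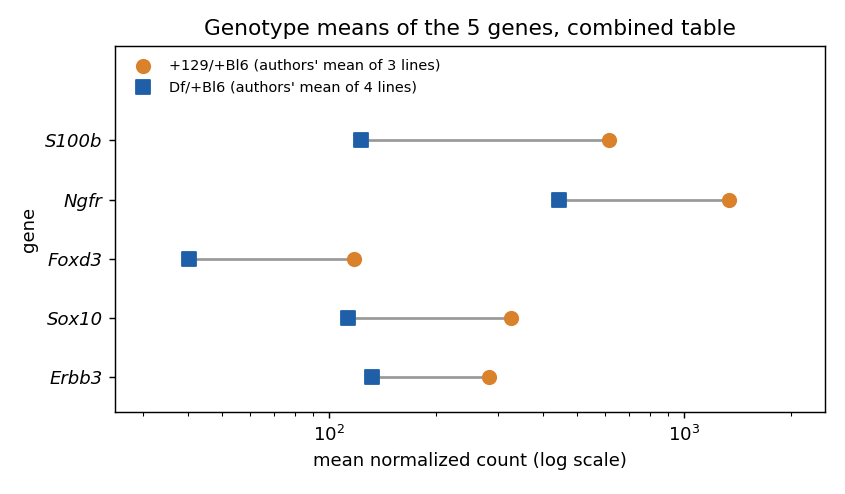
Mean normalized counts (log axis) of the 5 genes in Df/+Bl6 MEFs (blue squares, authors' mean of 4 lines) and +129/+Bl6 MEFs (orange circles, authors' mean of 3 lines), with a grey line joining the means of a gene. The Df/+Bl6 mean lies to the left for all 5 genes, by most for S100b (123 against 615) and by least for Erbb3 (132 against 282), and no error bars are drawn because no values per line were used.

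Levels were compared between genes per kilobase of the longest annotated transcript. On this scale the +129/+Bl6 level was 414 normalized counts per kilobase for S100b, 387 for Ngfr, 120.3 for Sox10, 49.6 for Foxd3 and 46.8 for Erbb3. In Df/+Bl6 the level per kilobase was 129 for Ngfr, 83.1 for S100b, 41.7 for Sox10, 22.0 for Erbb3 and 17.0 for Foxd3. S100b and Ngfr thus exchanged places in the order of levels, as did Foxd3 and Erbb3, and with no spread over lines it is unknown whether such neighbours differ. All 5 were expressed at a low level for this table. Among the 1300 listed genes with a transcript length, 16.5% had a lower level per kilobase than Ngfr, 15.0% than S100b, 4.15% than Sox10, 1.15% than Erbb3 and 1.08% than Foxd3.

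By log2 ratio, counted from the lowest of the 1346 listed genes, S100b ranked 16, Ngfr 52, Foxd3 56, Sox10 59 and Erbb3 140. The median ratio of the 550 genes lower in Df/+Bl6 was -0.81, and 173 of the listed genes had a ratio of -1 or below, the 5 genes included. At low levels the table lists larger differences only, and each gene was set beside the listed genes of a similar mean (within 1.5-fold, a range chosen after the values were seen). Around Foxd3 there were 15 such genes, 10 of them lower in Df/+Bl6, and all 10 had a lower ratio than Foxd3. Around Erbb3, 30 of 34 lower genes had a lower ratio, and around Sox10 12 of 34. Around S100b this was 1 of 31 lower genes, and around Ngfr 5 of 77. Foxd3 and Erbb3 were thus among the smaller differences listed at their level, and S100b and Ngfr among the larger ones.

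**Figure D2:**
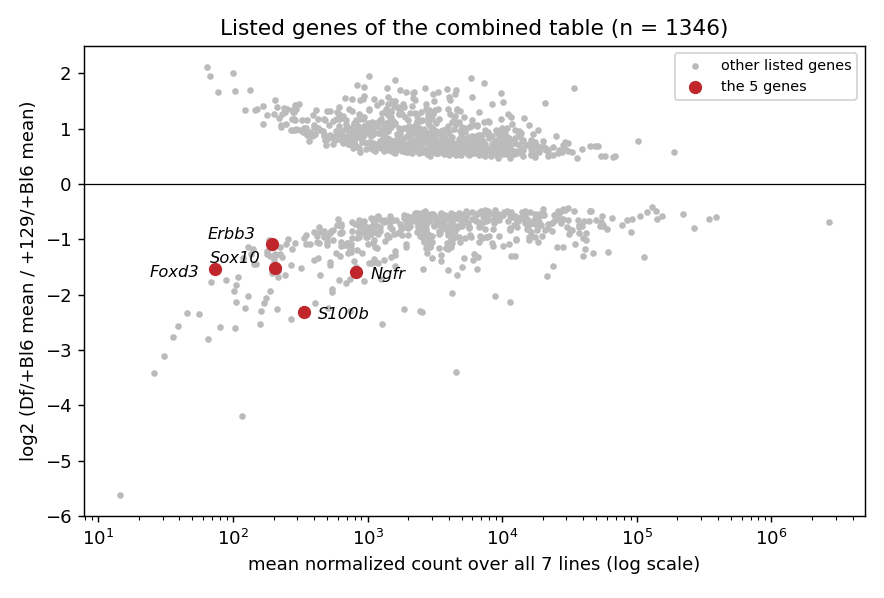
Log2 ratio of the Df/+Bl6 mean over the +129/+Bl6 mean against the mean normalized count over all 7 lines (log axis) for the 1346 listed genes of the combined table (grey), with the 5 genes in red. The 5 genes lie at the low end of the level axis and below 0, from -1.09 for Erbb3 to -2.32 for S100b, and the gap around 0 is the range in which no gene was listed.

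The listed genes with a ratio most like that of each gene were found over the 2 genotype means, so that a gene of any level or function can be near. For S100b they were Plin4, a lipid droplet protein (log2 ratio -2.31), ENSMUSG00000094651 (-2.30) and Aldoc, the brain form of aldolase (-2.30). For Ngfr they were the chemokine-scavenging receptor Ccrl1 (-1.58), the glutamate receptor subunit Grin1 (-1.61) and the desmosomal gene Perp (-1.56). Sox10 had Olfml2a (-1.52), the phospholipid transfer protein Pltp (-1.54) and Tprgl (-1.54), and Foxd3 had Tprgl and Pltp as well, with 2810405K02Rik (-1.56). Tprgl and 2810405K02Rik lie between Rere and Ski on chromosome 4, the interval in which the deletion was taken to lie, because the study marks Prdm16, between them, as inside the deletion and does not so mark Rere or Ski. The exact ends of the deletion were not used here. Erbb3 had desmoplakin, Dsp (-1.09), Nudt14 (-1.10) and ENSMUSG00000093577 (-1.10). The means of these genes were far from those of the 5 in several cases, with 2146 in Df/+Bl6 and 6339 in +129/+Bl6 for Perp. By mean over all lines, the genes ranking just below and above Foxd3 were Pla2g2e (log2 ratio -1.77) and ENSMUSG00000093726 (1.66), and those around Sox10 were Rtkn2 (1.51) and Slc17a9 (-1.30). Around Erbb3 they were Grin1 (-1.61) and Tgtp1 (-1.39), around S100b Rad51c (0.94) and Oip5 (1.01), and around Ngfr Cenpq (1.15) and 3632451O06Rik (-0.97). Of these 10 neighbours, 5 were thus higher in Df/+Bl6 and 5 lower.

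None of the 5 genes lies between Rere and Ski. Foxd3, the only one on chromosome 4, ends 50.6 Mb before Rere. Between Rere and Ski, 26 of 40 tested protein-coding genes were listed, all 26 lower in Df/+Bl6 with a median log2 ratio of -1.14, which is the direction the genotype labels give. The ratios of S100b, Ngfr, Foxd3 and Sox10, genes outside the interval, were below that median.

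The surroundings of each gene, within 1 Mb on either side, were examined in the same table. Over the 5 regions 12 of 176 other tested protein-coding genes were listed (6.82%, beside 8.67% of all tested genes), with 4 lower and 8 higher in Df/+Bl6. Around Sox10 this was 1 gene of 49, the potassium channel Kcnj4 (log2 ratio -0.99), and around Ngfr 1 of 36, the nuclease subunit Eme1 (0.98). Around Foxd3 2 of 10 were listed, Alg6 of protein glycosylation (0.72), which is the nearest tested gene at 56.9 kb, and the deubiquitinase Usp1 (1.12), both opposite in direction to Foxd3. Around S100b the 3 of 31 listed were Ddt (-0.68), Gstt3 (-0.91) and Zfp280b (0.54). Around Erbb3 5 of 50 were listed, with Coq10a lower (-0.71) and Timeless, Ptges3, Prim1 and Nemp1 higher. The nearest tested genes of S100b (Dip2a, 1.72 kb away), Erbb3 (Pa2g4, 1.59 kb), Sox10 (Polr2f, 3.14 kb) and Ngfr (Nxph3, 54.3 kb) were not listed. No annotated gene overlapped the 5, other than the microRNA gene Mir6917 with Erbb3.

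**Figure D3:**
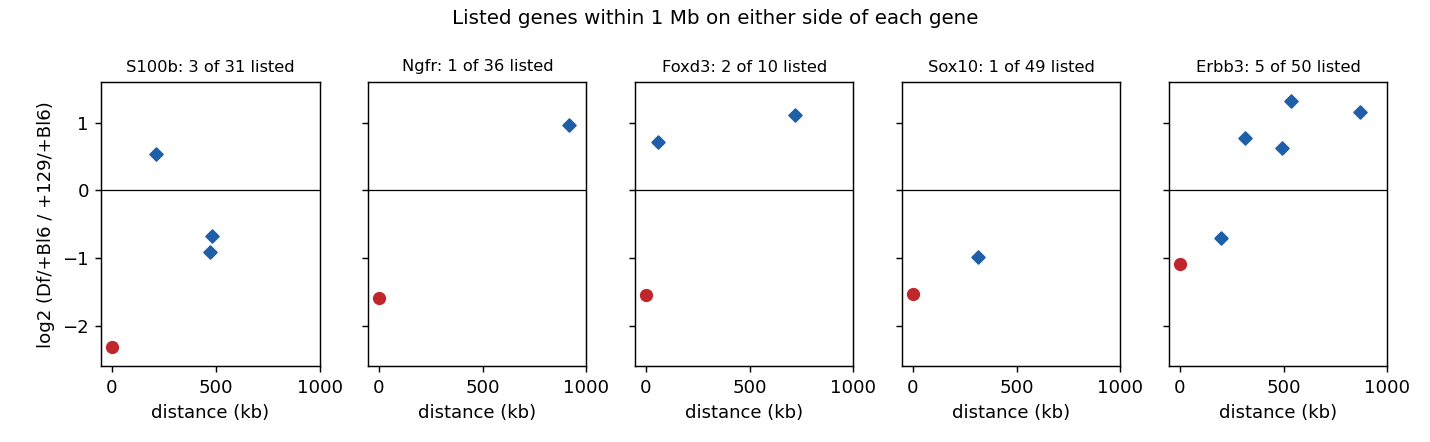
Log2 ratio of the Df/+Bl6 mean over the +129/+Bl6 mean for each of the 5 genes (red, at distance 0) and for the listed protein-coding genes within 1 Mb on either side (blue), against the distance in kb between the genes. Each title gives the number listed of those tested, from 1 of 49 around Sox10 to 2 of 10 around Foxd3, and 8 of the 12 neighbours lie above 0.

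Other genes of the lineage were taken from 7 lists by role, and a listed gene is counted beside the share of all tested genes that the combined table lists, 8.67%. Genes that were tested and are not listed have no value here, which does not show that they were unchanged. Without the 5 genes, 7 of the 76 tested genes counted in these lists were listed (9.21%). Of these 6 were lower (7.89%, beside 3.54% of all tested genes) and 1 higher (1.32%, beside 5.13%), and no test was run on these shares. One of the 6, Errfi1, lies between Rere and Ski. The lists were written with earlier results of these data known, so these shares are a description only. Over the 6 lists of markers of other cells given below, 7.02% of tested genes were lower and 0 higher.

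Among neural crest transcription factors, 16 of 18 genes were tested and 2 were listed, Foxd3 and Sox10 themselves. The 14 others tested, among them the SOX10 relatives Sox8 and Sox9, Pax3, Snai1, Snai2 and Twist1, were not listed in either direction. Pax7 and Tfap2c were not among the tested genes. Several of these factors are also used in mesenchymal cells, and the list is not particular to the neural crest.

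Among neuregulin ligands, ERBB receptors and proteins that bind these receptors 2 of 8 tested genes were listed, and the selected Erbb3 was the only ligand or receptor among them. The other was Errfi1, which encodes a feedback inhibitor of ERBB receptors and lies between Rere and Ski. Its mean was 8843 in Df/+Bl6 and 17739 in +129/+Bl6 (49.8%). The ligands Nrg1 and Nrg2 and the receptors Egfr, Erbb2 and Erbb4 were tested and not listed, and Nrg3 and Nrg4 were not tested. Among neurotrophins, their receptors and proteins that act with these receptors 3 of 14 tested genes were listed, all lower, or 2 of 13 without the selected Ngfr. These 2 do not encode neurotrophin receptors and were Rtn4r, the Nogo receptor (236 and 499, -1.08), and Lingo1, its partner in a complex with the Ngfr protein (997 and 1899, -0.93). No neurotrophin and no Trk receptor was listed. Of the S100 family, the S100-binding protein gene S100pbp and Ager, a receptor for S100 proteins, 2 of 12 tested genes were listed, S100b and S100a16, which had means of 2081 and 3989 (-0.94).

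Of the genes of Schwann cell precursors and immature Schwann cells, 17 of the 20 counted were tested and 6 listed, all lower. As 5 of the 6 are the selected genes, the count without them was 1 of 12 (8.33%). This was Cadm4, an adhesion molecule that Schwann cells use to contact axons, with means of 288 in Df/+Bl6 and 594 in +129/+Bl6 (log2 ratio -1.04). Cdh19, Gap43, Gfra3, Dhh, Fabp7, Ncam1, L1cam, Sox2, Jun, Itga6 and Nes were tested and not listed, and Gfap, Pou3f1 and Pou3f2 were not tested.

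In the other branches of the neural crest, 1 of 8 tested melanocyte genes was listed, and it was higher in Df/+Bl6. Slc24a5, an ion exchanger of melanosomes, had a mean of 3659 in Df/+Bl6 and 2160 in +129/+Bl6 (log2 ratio 0.76). Mlph, a melanosome transport gene outside the list that was named after its values were seen, was lower (128 and 310.5, -1.27). Mitf, Tyr, Pmel, Kit and Ednrb were tested and not listed, and Dct, Tyrp1 and Mlana were not tested. Of sympathetic, sensory and enteric neuron genes 11 of the 20 counted were tested and 1 was listed, Ret, the receptor of glial cell line-derived neurotrophic factor. Its means were 304 and 1018, a log2 ratio of -1.74, between those of S100b and Ngfr. Th and Dbh, enzymes of noradrenaline synthesis in sympathetic neurons, were not among the tested genes.

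**Figure D4:**
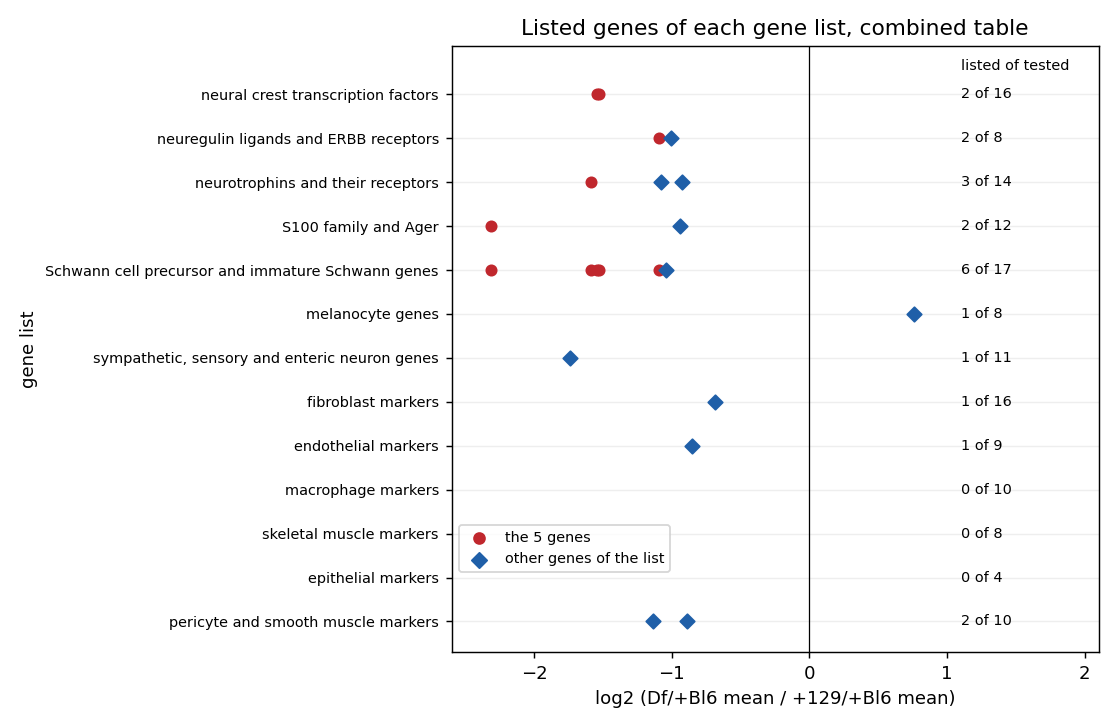
Log2 ratio of the Df/+Bl6 mean over the +129/+Bl6 mean for each listed gene counted in 13 gene lists, with the 5 genes in red, other genes in blue and the number listed of those tested at the right. Most lists hold 1 or 2 listed genes, all of them below 0 except Slc24a5 among the melanocyte genes (0.76), and 5 of the 6 points of the Schwann cell list are the selected genes.

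Markers of other cells that such cultures can hold were set beside these values. All 16 fibroblast markers were tested, and 1 was listed, Fn1 (fibronectin), with means of 2121647 in Df/+Bl6 and 3418220 in +129/+Bl6 (log2 ratio -0.69), the highest mean in the table. Of the endothelial markers 1 of 9 was listed, the TGF-beta co-receptor Eng (3327 and 6018, -0.85). Of the pericyte and smooth muscle markers 2 of 10 were listed, Notch3 (2741 and 6013, -1.13) and Cspg4 (27161 and 50232, -0.89), and Acta2, Tagln and Myh11 were not. No listed gene was found among 10 tested macrophage, 8 skeletal muscle and 4 epithelial markers, and the epithelial markers Epcam, Krt5 and Grhl2 were not among the tested genes. Over these 6 lists 4 of 57 tested genes were listed, all lower in Df/+Bl6 (7.02%, beside 3.54% of all tested genes), with a median log2 ratio of -0.87. Their part in the lower means of the 5 genes was not tested. These marker lists were likewise written with earlier results of these data known.

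At the level of single alleles none of the 5 genes has a value. The table for reads of the 129S5 allele lists 257 genes and that for reads of the C57BL/6J allele 326, and neither holds any of the 5. Whether the lower means come from 1 allele or both could therefore not be examined. Of all genes counted in the 13 lists, Errfi1 alone appears in an allele table, with 1.52 in Df/+Bl6 and 150.3 in +129/+Bl6 for the 129S5 allele (log2 ratio -6.63), the allele of the chromosome that carries the deletion, which is a more direct check of the genotype labels than the combined table gives. The allele tables were normalized separately from the combined one, so only ratios can be set side by side.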

How the data were processed

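RNA from 7 MEF lines (4 Df/+Bl6, 3 +129/+Bl6, grouped by their labels) was aligned by the authors with GSNAP, without mismatches, to C57BL/6J transcripts (GRCm38/mm10) and a 129S5 version of them, the longest transcript standing for each gene. Tool versions are not given in the sources used here. The deposited signal values are mean normalized counts per genotype, which the authors obtained with DESeq, for genes past the FDR of 0.05 in 3 tables (combined, 129S5, C57BL/6J). The mean over all lines equals the weighted mean of both genotypes in every table. The authors' columns of fold change, log2 fold change, p and adjusted p were not used. A further file has 9 unnamed value columns, which were not used, and its identifiers served as the list of tested genes. Genes with few reads per allele had been left out by the authors, which removes weakly expressed genes.

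Ratios were computed without a pseudocount, with Python 3.11.15, numpy 2.4.6 and pandas 2.3.3, and the counting was tested on simulated data. Symbols came from a GENCODE table (1320 of 1346 listed genes matched), or from RefSeq synonyms. Positions and promoters came from RefSeq (GRCm38.p6), and transcript lengths from GENCODE. The members and lists were chosen with earlier results of these data known. Some genes and 1 list are not reported here and were left out of the list counts, whatever their values. Named genes are the 5 members, list genes present in a table, the 3 listed genes nearest each member by ratio and its neighbours by mean. Neighbours on the chromosome, list genes without a value and genes of the closing paragraphs were chosen after the values were seen. Alternatives were pseudocounts of 1 and 10, minimum means of 100 and 1000, means in place of medians, allele tables, and identifiers with a symbol.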

Additional observations from a re-analysis of the deposited data

How the results depend on the processing

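All 5 genes stayed lower in Df/+Bl6 with a pseudocount of 1 or 10. With 1, the log2 ratio was -1.52 for Foxd3, -2.31 for S100b and -1.52 for Sox10, and with 10 it was -1.34 for Foxd3, -2.23 for S100b, -1.45 for Sox10, -1.57 for Ngfr and -1.04 for Erbb3, the shift being built into the addition. With a mean over all lines of at least 100, 1 neural crest transcription factor was listed, and 13 of the 14 lists, the 5 genes counted as one, changed by less than 1.5-fold. With at least 1000, the number listed was 0 for the 5 genes, the neural crest transcription factors, the Schwann cell and neuron lists, and 1 for the neuregulin, neurotrophin and S100 lists, because these genes lie under that level. Means in place of medians gave -1.61 for the 5 genes, -1.20 for the neurotrophin list and -1.52 for the Schwann cell list. Without the 5 genes, an alternative chosen after seeing the data, 0 neural crest transcription factors, 1 gene of the neuregulin list, 2 of the neurotrophin list, 1 of the S100 list and 1 of the Schwann cell list were listed. No sign reversed under these alternatives. The allele tables gave no value for the 5 genes. Single lines could not be left out, since no value per line was used, and depth per line is unknown. No paired analysis was possible because the lines carry no pairing and the values are means.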

Other observations

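The genes below were chosen singly after their values were seen, belong to no list above and stand for no group. Itgb4, an integrin of hemidesmosomes that Schwann cells also express, had a mean normalized count of 335 in Df/+Bl6 and 1168 in +129/+Bl6 (log2 ratio -1.80). Its laminin ligand is made in part by Lama3 (232 and 722, -1.64) and Lamb3 (116 and 285, -1.30). The keratin Krt75 had means of 10.2 and 69.7 (-2.77), and Sfn, a 14-3-3 protein of epithelia, had 842 and 1492 (-0.83).

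Other single genes lower in Df/+Bl6 were Col28a1, a collagen of peripheral nerve (475 and 1121, -1.24), Apod, a lipocalin found in nerve (85.2 and 187, -1.14), and the semaphorins Sema3b (915 and 4509, -2.30) and Sema3f (6709 and 14602, -1.12). The proliferation marker Mki67 differed in the other direction, with 48354 in Df/+Bl6 and 14644 in +129/+Bl6 (1.72), as did Top2a (28791 and 10402, 1.47). Their part in the lower means of Sox10, Erbb3, Foxd3, S100b and Ngfr was not tested.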
